A study of Mus musculus with 2 samples.

Results

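The telomere-proximal ends of the mouse autosomes were examined in 2 ChIP-seq libraries. For each of chromosomes 1 to 19 the end was taken as the largest read end in either library, and the 2 Mb before it were divided into 10 kb bins counted back from that point. This gave 3800 bins, of 241489 whole bins on these chromosomes. Chromatin immunoprecipitation followed by sequencing (ChIP-seq) had been done with an antibody against Tnni2, the troponin I of fast skeletal muscle, in primary osteoblasts, the bone-forming cells. The mutant library, called del175k below, came from animals of strain 129sv homozygous for the del175k allele of Tnni2, and the wild-type library from their wild-type littermates, also 129sv. The series text gives n = 3, and no label says whether animals were pooled. There is thus 1 library per genotype and no replicate check, and every interval below is an exact 95% interval for counting error alone that compares libraries, not genotypes. Neither input DNA nor a control antibody was analysed here, so no density below can be credited to the antibody.

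A telomere is an array of the repeat TTAGGG bound by a protein complex that protects the chromosome end, and the DNA next to it often carries duplicated sequence and gene families present in several copies. Mouse autosomes are telocentric: the centromere lies at one end, so each has a single end at which ordinary, gene-bearing chromosome arm runs up to the telomere. That end is the one with the highest coordinates. Coordinates are given as in the deposited reads, counted from 1, and their build is uncertain. The last aligned read is not the telomere itself, and distances below are distances from that read. Gene names come from the order of protein-coding genes in RefSeq's GRCm38.p6 table. They say which genes come last on a chromosome in that build, and whether those genes lie in the last 2 Mb of the reads' coordinates was not determined. No sequence is printed, as no genome of the files' build was used.

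Both libraries were of similar depth. The del175k library held 3189487 reads at 2927228 distinct positions, each a chromosome, 5′ end and strand, on chromosomes 1 to 19, and wild type 3193402 reads at 2821498 positions. The ends held 52815 reads at 48513 positions in the del175k library and 53348 reads at 47261 positions in wild type. They made up 1.57% of the bins and held 1.66% of the mutant and 1.68% of the wild-type positions. The mean autosomal bin held 12.1 positions in the del175k library and 11.7 in wild type, and densities below are given as multiples of these means or of a neighbouring stretch.

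The ends held fewer reads than the chromosome arms next to them. Over all 19 ends the del175k library held 12.8 positions per bin, against 14.6 in the 10 Mb before, which is 0.876 times that density (0.868 to 0.885). Wild type held 12.4 positions per bin against 14.6, or 0.853 times (0.845 to 0.861). The 10 Mb before the ends were themselves denser than the average autosomal bin, at 1.20 times in del175k and 1.25 times in wild type. Against the whole of the remaining autosomes the ends were therefore slightly denser, at 1.05 times in the del175k library (1.04 to 1.06) and 1.07 times in wild type (1.06 to 1.08). The shortfall is thus one against the neighbouring arm, not against the genome. With every aligned read counted, the ends held 0.878 and 0.851 times the density of the 10 Mb before, within the intervals for distinct positions.

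Density declined towards the end over more than 1 Mb. The last 100 kb held 1608 positions in the del175k library, 0.698 times the mean bin (0.665 to 0.733), and 1441 in wild type, 0.649 times (0.616 to 0.684). From 100 to 200 kb the multiples were 0.827 and 0.770. The mean bin was first reached between 500 and 600 kb in the del175k library and between 600 and 700 kb in wild type. The density of the 10 Mb before was first reached between 1500 and 1600 kb in both. The increase with distance was uneven, as 7 of the steps between neighbouring 100 kb classes went down in the del175k library and 5 in wild type. Across the 2 Mb border itself there was no jump. The class from 1900 to 2000 kb lay at 1.28 times the mean bin in del175k and 1.34 times in wild type, and the next 1 Mb at 1.30 and 1.36 times.

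**Figure D1:**
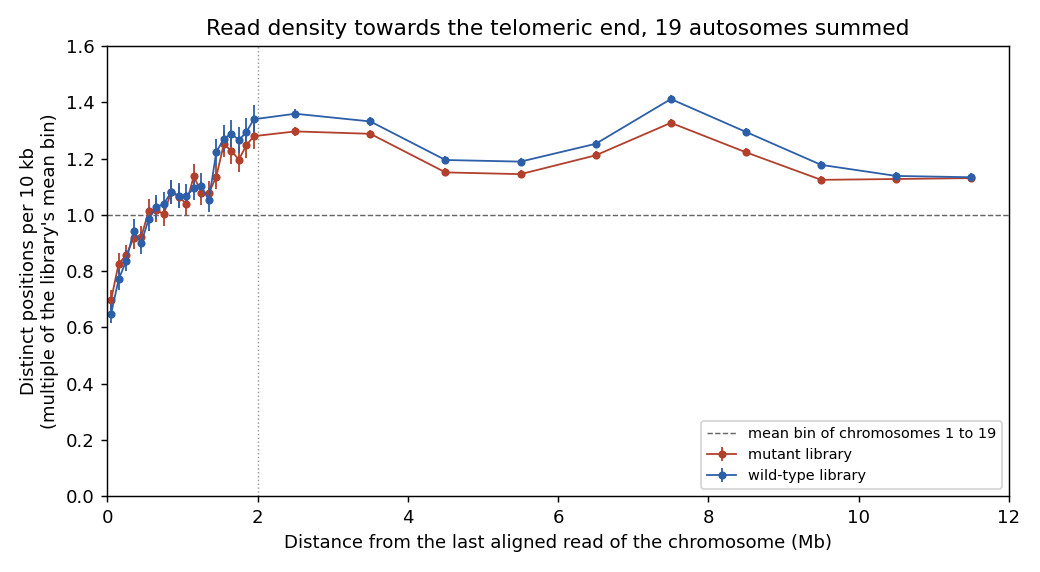
Distinct positions per 10 kb bin, summed over the 19 autosomes, against distance in Mb from the last aligned read, as multiples of each library's mean autosomal bin (dashed line). Points are 100 kb classes within the last 2 Mb (dotted line) and 1 Mb classes beyond it, and bars are exact 95% Poisson intervals. Both libraries lie at 0.698 and 0.649 times the mean in the last 100 kb and near 1.3 times at 2 Mb.

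The decline was present at most but not all chromosomes. In the last 2 Mb the interval lay below 1, relative to the 10 Mb before, at 13 chromosomes in del175k and 14 in wild type, at 13 of them in both. It lay above 1 at 4 chromosomes in each library, the same 4. The values ran from 0.589 to 1.42 with a median of 0.853 in the del175k library, and from 0.492 to 1.40 with a median of 0.813 in wild type. The last 200 kb went further in the same direction. There the interval lay below 1 at 16 chromosomes in each library and at 15 in both, with medians of 0.566 and 0.488. Chromosomes 13 and 15 were below 1 in 1 library each: chromosome 13 had 0.834 (0.723 to 0.958) in del175k and 1.02 (0.892 to 1.16) in wild type, and chromosome 15 had 0.950 (0.842 to 1.07) and 0.792 (0.695 to 0.899). The last 200 kb were sparser than the rest of the same end at 17 chromosomes in del175k and 18 in wild type. The ranking of the ends was much alike in the libraries, with a Pearson r of 0.983 and Spearman’s rho of 0.965 over 19 ends. This is a description, since both libraries share the reference. Base composition was not measured, and why the rankings were alike was not tested.

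Chromosomes 2, 4, 7 and 16 had ends that were denser than the arm before them. The end of chromosome 2, from 179747150 to 181747149, held 3658 positions in del175k and 3725 in wild type, 1.42 times (1.36 to 1.47) and 1.40 times (1.35 to 1.45) the 10 Mb before. Its last 200 kb were nevertheless sparse, at 0.863 times (0.752 to 0.985) and 0.656 times (0.562 to 0.762). Myt1, which encodes a zinc-finger factor of the nervous system, and Polr3k, which encodes a subunit of RNA polymerase III, are among the last 5 protein-coding genes of chromosome 2 in GRCm38. On chromosome 4 the end, from 153630064 to 155630063, held 3682 and 4077 positions, 1.31 times (1.26 to 1.36) and 1.39 times (1.34 to 1.44). In GRCm38 the last gene of that chromosome is Vmn2r129, and Samd11, Noc2l and Klhl17 come next, counting inward. Chromosome 16 had an end of lesser excess, which held 3312 and 3331 positions, 1.14 times in the del175k library (1.10 to 1.18) and 1.13 times in wild type (1.09 to 1.18), while its last 200 kb fell to 0.632 and 0.511 times.

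The end of chromosome 7 held the most positions of the 19 ends in both libraries, 3908 in del175k and 4310 in wild type. These were 1.11 times (1.07 to 1.15) and 1.22 times (1.18 to 1.27) the 10 Mb before. It was also the densest of the 74 windows of 2 Mb counted back along chromosome 7, in each library. Chromosomes 7 and 4 had intervals above 1 in the last 200 kb in both libraries. On chromosome 7 the last 200 kb held 413 and 418 positions, 1.17 times (1.06 to 1.29) and 1.19 times (1.08 to 1.31). On chromosome 4 they held 325 and 331, 1.15 times (1.03 to 1.29) and 1.13 times (1.01 to 1.26). In GRCm38 the last genes of chromosome 7 are Mrgprd and Mrgprf, members of the Mas-related receptor family, then Tpcn2, which encodes an ion channel of endosomes and lysosomes. Ccnd1, which encodes cyclin D1, a regulator of entry into DNA synthesis, is the fifth from the end. The density on chromosome 7 was broken between 1650 and 1700 kb from the end, where the mean of the libraries was 0.345 times the mean bin, next to a block from 1600 to 1650 kb at 2.23 times.

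**Figure D2:**
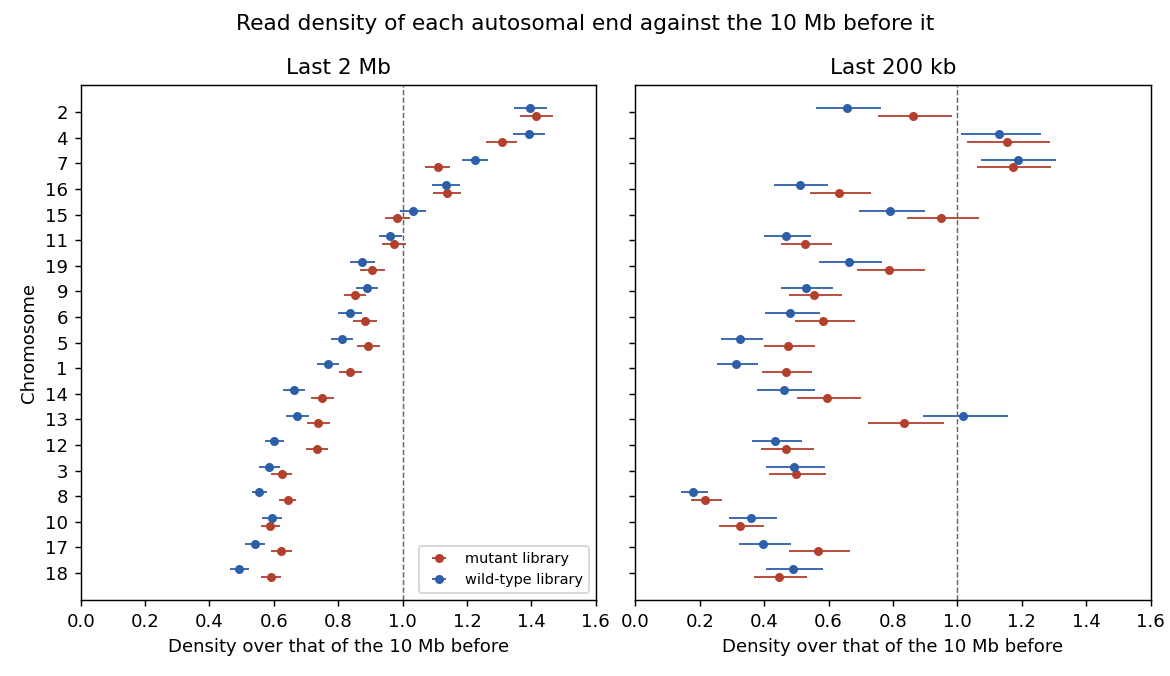
Density of distinct positions in the last 2 Mb (left) and the last 200 kb (right) of each autosome, divided by that of the 10 Mb before, with exact 95% intervals for counting error and chromosomes ordered by the mean of the libraries for the last 2 Mb. At 4 chromosomes (2, 4, 7 and 16) both libraries lie above 1 for the last 2 Mb, and at chromosomes 4 and 7 they also do so for the last 200 kb.

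The 3 lowest ends relative to their arms were those of chromosomes 10, 18 and 17 in the del175k library and of chromosomes 18, 17 and 8 in wild type. The end of chromosome 18 held 1566 positions in the del175k library, 0.591 times the 10 Mb before (0.561 to 0.623), and 1249 in wild type, 0.492 times (0.464 to 0.521). Among the 43 windows of 2 Mb on chromosome 18 it was the second sparsest in the del175k library and the sparsest in wild type. Its last genes in GRCm38 include Rttn, which encodes a protein of the centriole, and Cd226, which encodes a receptor of immune cells. On chromosome 17 the end held 1585 and 1336 positions, 0.623 times (0.591 to 0.656) and 0.541 times (0.511 to 0.572). Fshr, which encodes the receptor of follicle-stimulating hormone, is among its last genes. On chromosome 10 the end held 1636 and 1587 positions, 0.589 times (0.560 to 0.621) and 0.594 times (0.564 to 0.626). Its last 4 genes in GRCm38, Vmn2r84 to Vmn2r87, encode pheromone receptors of the vomeronasal organ. Such genes are not particular to low ends, as Vmn2r129 comes last on chromosome 4, whose end was dense.

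Chromosome 8 had the lowest last 200 kb relative to the arm before it. These held 83 positions in the del175k library, 0.218 times the 10 Mb before (0.173 to 0.270), and 73 in wild type, 0.180 times (0.141 to 0.226). The 10 Mb before were the densest of any chromosome in both libraries, at 19.1 and 20.3 positions per bin. The end as a whole, at 12.3 and 11.3 positions per bin, was close to the autosomal mean. Itgb1, which encodes a subunit of the receptors through which cells bind collagen and fibronectin, is the fifth gene from the end of chromosome 8 in GRCm38. A low value relative to the arm therefore did not mean a sparse end in every case. Among all 2 Mb windows of its own chromosome, the median end was denser than 50% of the other windows in del175k and 49.3% in wild type, with a range from 2.38% to 100% and from 0% to 100%.

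**Figure D3:**
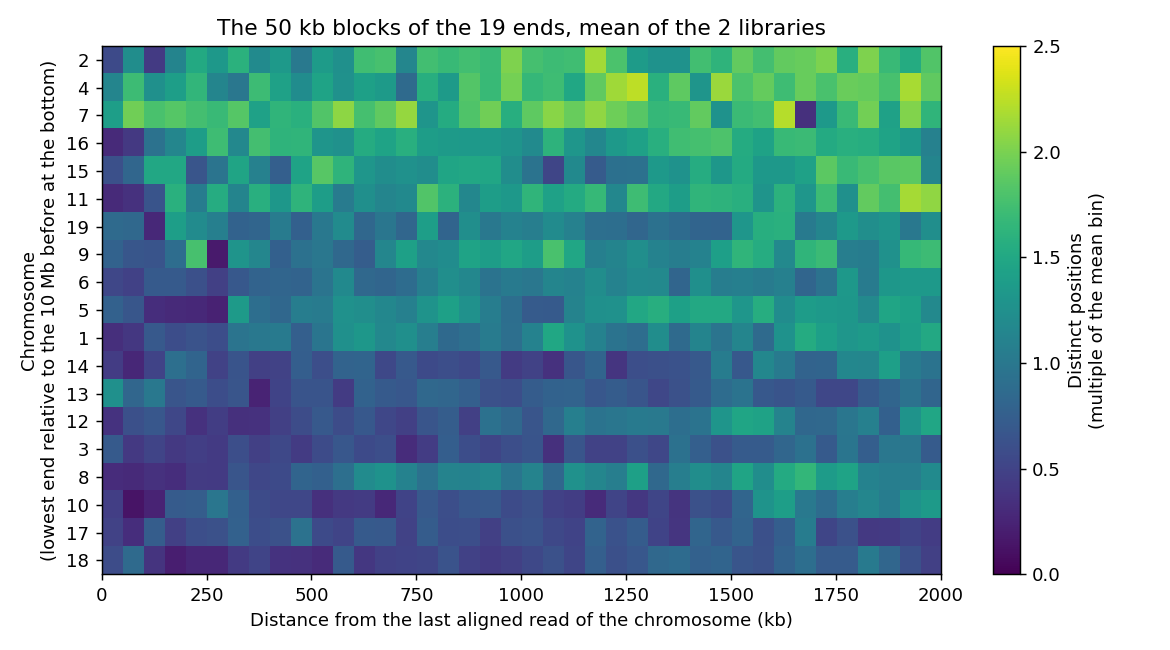
Each row is the last 2 Mb of one autosome in blocks of 50 kb, from the last aligned read at the left, coloured by distinct positions as a multiple of the mean autosomal bin (mean of both libraries). Rows follow the order of the last 2 Mb over the 10 Mb before. Blocks run from 0.135 times (chromosome 10, 50 to 100 kb) to 2.25 times (chromosome 4, 1250 to 1300 kb), and the dark blocks gather at the left.

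No pile-up of reads was found next to the telomeres. A pile-up was set as a 10 kb bin with at least 5 times the reads of the library's mean bin. Of the 380 bins in the last 200 kb, 0 met this in either library, and of all 3800 end bins also 0. Over the autosomes 0.0195% of bins met it in the del175k library (47 bins) and 0.0153% in wild type (37 bins). A count of 0 among 380 bins allows a share of up to 0.789%, and among 3800 bins up to 0.0789%, so a shortage against the background is not shown either. Bins at 3 times the mean numbered 1 of 380 in the del175k library within the last 200 kb, against 0.0878% of autosomal bins, and 3 of 380 in wild type, against 0.257%. Over the whole ends they numbered 4 of 3800 (0.105%) and 17 of 3800 (0.447%). At this lower limit the mutant share over the whole ends was near the autosomal one, and by distinct positions it was 0.0789% against 0.0737%. The wild-type share was higher than the autosomal one, also by distinct positions, at 0.368% against 0.168%. All of this rests on few bins and was not tested.

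The bins with the most reads were on chromosomes 9, 2 and 4. The fullest end bin lay on chromosome 9 from 123838096 to 123848095, 220 to 230 kb from the end. It held 60 reads at 54 positions in the del175k library, 4.54 times the mean bin, and 65 reads at 55 positions in wild type, 4.92 times, just under the limit for a pile-up. The block of 50 kb next to it, from 250 to 300 kb, held only 0.183 times the mean bin. Within the last 200 kb the fullest bin was that of chromosome 2 from 181657150 to 181667149, 80 to 90 kb from the end, with 43 reads at 37 positions in the del175k library and 48 reads at 42 positions in wild type. Next came chromosome 4, from 155540064 to 155550063, with 33 reads at 28 positions and 44 reads at 39 positions. These were many different fragments rather than copies of a few, with nearly as many positions as reads. Of the 10 fullest end bins, 4 lay on chromosome 7 and 2 each on chromosomes 2 and 4, and the intervals of the ratio between the libraries held 1 for all 10.

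The last bin of chromosome 13, from 120274278 to 120284277, held the most reads of the 19 terminal bins in each library. There were 25 reads at 25 positions in the del175k library and 46 reads at 41 positions in wild type, 1.89 and 3.48 times the mean bin. Its ratio between the libraries was 0.588 (0.343 to 0.990) for this bin alone, with no allowance for the number of bins compared. The last gene of chromosome 13 in GRCm38 is Tcstv3, one of a gene family expressed in the early embryo. Summed over all 19 chromosomes, the last 10 kb lay at 0.704 times the mean bin in del175k and 0.707 times in wild type. Empty bins were not more frequent at the ends. Of the end bins 24 held no position in either library (0.632%), against 3.04% of all autosomal bins.

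No excess of repeated reads was detectable at the ends. The ends had 1.089 reads per position in the del175k library (1.086 to 1.091) and 1.129 in wild type (1.125 to 1.132). Over chromosomes 1 to 19 the values were 1.090 and 1.132, and in the 10 Mb before the ends 1.087 and 1.131. Repeat reads, those after the first at their position, came to 8.15% of del175k reads in the ends (7.91 to 8.38%) and 11.4% of wild-type reads (11.1 to 11.7%). The difference between the libraries was as large over all autosomes, at 8.22% and 11.6%. Chromosome ends ranged from 1.080 to 1.099 reads per position in the del175k library and from 1.110 to 1.151 in wild type. The first 2 Mb with reads on the centromeric side had 1.117 and 1.157 reads per position, each above the interval of the same library’s telomeric ends.

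Stacks, that is single positions with 10 or more reads, numbered 0 in the ends of both libraries and 0 in the 10 Mb before. Over the autosomes there were 183 in del175k and 185 in wild type, 62.5 and 65.6 per 1000000 positions. Taken as 3 counts, the limit that a count of 0 allows was 61.8 and 63.5 per 1000000 in the ends, about the autosomal levels, so a shortage of stacks in the ends is not shown. In the 10 Mb before it was 10.8 per 1000000 in each library. The most reads at 1 position were 5 in the mutant ends and 8 in the wild-type ends, against 60 and 84 over the autosomes. Positions with 5 or more reads numbered 1 in the mutant ends, 20.6 per 1000000 (0.522 to 115), and 34 in the wild-type ends, 719 per 1000000 (498 to 1005). Over the autosomes they numbered 228 per 1000000 in the del175k library and 671 per 1000000 in wild type. In the 10 Mb before the ends there were 22 in del175k, 79.5 per 1000000 (49.8 to 120), and 153 in wild type, 552 per 1000000 (468 to 647). The mutant ends thus lay below the mutant autosomes beyond counting error, as did the 10 Mb before, and the ends and these 10 Mb were not distinguishable. The interval of the wild-type ends held the wild-type autosomal level. Within the last 200 kb there was 1 such position, on chromosome 13 in wild type, with 7 reads on the minus strand at 120199514.

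Strand balance and fragment pairs, which did not enter the choice of the ends, were close to those of the rest of the genome. The plus strand held 50.02% of the end positions in the del175k library (49.6 to 50.5%) and 49.8% in wild type (49.3 to 50.2%). The distance at which reads on opposite strands were most frequent, an estimate of fragment length, was 215 bp in del175k and 212 bp in wild type over the autosomes. In the ends, pairs at this distance were 1.75 times as frequent (1.56 to 1.96) as pairs 500 to 600 bp apart in the del175k library and 1.69 times (1.51 to 1.88) in wild type. In the 10 Mb before, the values were 1.67 (1.60 to 1.75) and 1.77 (1.70 to 1.85), within the intervals of the ends. Bin counts had SDs of 6.76 and 7.45 positions over 3800 bins in the ends, against 6.70 and 7.21 over 19000 bins before them. The means were lower in the ends, at 12.8 and 12.4 against 14.6 in each library, so the spread relative to the mean was larger there. Over all autosomal bins the SDs were 7.33 and 7.72, about means of 12.1 and 11.7.

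The opposite, centromeric ends did not show the same shortfall when summed. The first 2 Mb with reads held 1.06 times the density of the 10 Mb after them in the del175k library (1.05 to 1.08) and 1.10 times in wild type (1.09 to 1.12), against 0.876 and 0.853 at the telomeric ends. The intervals do not overlap. The centromeric ends were not the fuller ones. They held 43559 positions in del175k and 42326 in wild type, against 48513 and 47261 at the telomeric ends. The 10 Mb after them held 204703 and 191739 positions, against 276806 and 277025 in the 10 Mb before the telomeric ends. The contrast is thus one against the neighbouring stretch. The centromeric ends were far less uniform, from 0.00717 to 2.83 times in del175k and from 0.00590 to 3.10 times in wild type, with 10 and 9 of the 19 below 1.

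Summed over the ends, the ratio between the libraries was near 1, and the side of 1 on which it lay depended on the scaling. After scaling to positions on chromosomes 1 to 19, the ratio of mutant to wild type was 0.989 (0.977 to 1.002), not distinguishable from 1. Scaled to the median of 100 kb bins it was 0.971 (0.959 to 0.984). Relative to the 10 Mb before each end, where the ratio was 0.963 (0.958 to 0.968), it was 1.03 (1.01 to 1.04). The last 200 kb, with 3512 mutant and 3151 wild-type positions, had a ratio of 1.07 (1.02 to 1.13), and the class from 1900 to 2000 kb one of 0.955 (0.907 to 1.01). Single ends differed in both directions. The interval lay above 1 at 7 chromosomes and below 1 at 6. The highest ratio was 1.21 on chromosome 18 (1.12 to 1.30) and the lowest 0.870 on chromosome 4 (0.832 to 0.910), followed by 0.874 on chromosome 7 (0.837 to 0.913).

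The ratio of an end went with its density. Over the 19 ends Spearman’s rho between ratio and summed positions was -0.879, and Pearson’s r with the log2 ratio was -0.901. All points share the same libraries, and the positions enter both axes. The same gradient was seen over the autosomes outside the ends. When all 100 kb blocks were divided into 5 classes of equal size by density, the blocks elsewhere had a ratio of 1.13 in the sparsest class (1.13 to 1.14) and 0.923 in the densest (0.920 to 0.925). The end blocks of these classes had 1.13 (1.09 to 1.18) and 0.912 (0.894 to 0.930). With each class given its ratio elsewhere, the ends would have had a ratio of 0.990, and the observed value was 0.9996 times that (0.987 to 1.01). For the last 200 kb, of whose 38 blocks 29 were in the sparser pair of classes (17 and 12), the value elsewhere at the same density was 1.05. The observed 1.07 was 1.03 times that (0.978 to 1.08).

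**Figure D4:**
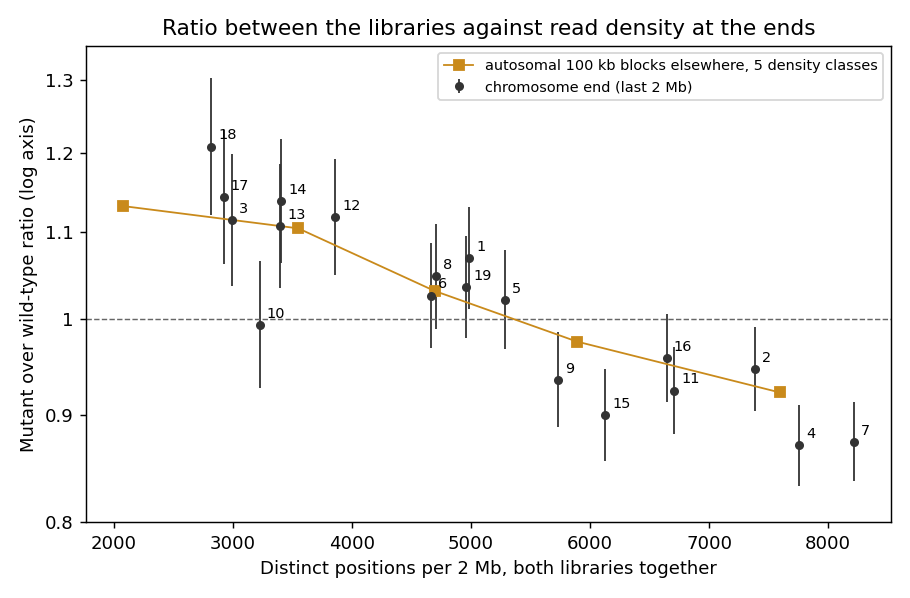
Ratio of mutant to wild-type positions (log axis) against the distinct positions of both libraries in the last 2 Mb of each autosome, numbered by chromosome, with exact 95% intervals. Squares show the 100 kb blocks of chromosomes 1 to 19 outside the ends in 5 density classes, rescaled to 2 Mb. Both decline with density, from 1.21 at chromosome 18 to 0.870 at chromosome 4 for the ends.

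Single 10 kb bins of the ends differed between the libraries about as often as bins anywhere. A bin was compared if both libraries summed to at least 20 positions in it. Of 2354 such end bins, 189 (8.03%) lay past 2-fold, against 8.48% of 148266 such bins over the autosomes. Those higher in the del175k library numbered 92 (3.91%, against 4.49%) and those lower 97 (4.12%, against 3.99%). A share near the background is not a difference particular to the ends. With intervals widened for all bins compared, 0 end bins and 15 autosomal bins had an interval that excluded 1, of which 13 were also past 2-fold. The end bin farthest from a ratio of 1 was on chromosome 10 from 129045892 to 129055891, 930 to 940 kb from the end. It held 19 mutant and 3 wild-type positions, a ratio of 6.10 (1.80 to 32.2) for this bin alone. It was followed by chromosome 1 from 196372106, with 19 and 4 positions and a ratio of 4.58 (1.52 to 18.5), and chromosome 13 from 118294278, with 23 and 5 positions and a ratio of 4.43 (1.65 to 14.9). The lowest ratio, 0.268, was shared by chromosome 11 from 120553358, with 10 and 36 positions (0.119 to 0.551), and chromosome 10 from 128055892, with 5 and 18 (0.0777 to 0.748). The 10 farthest bins lay on 8 chromosomes, and none of them was within 800 kb of an end. Bins below 20 positions were not compared, and density was lowest near the last read. The compared bins were not counted by distance, so this placing is not a result about location. On chromosome 7 all 6 bins past 2-fold, on chromosome 4 13 of 14 and on chromosome 9 8 of 10 were lower in the del175k library. Higher there were 10 of 11 on chromosome 8, 7 of 8 on chromosome 14, 6 of 7 on chromosome 13 and all 3 on chromosome 17. The whole end of chromosome 8 had a ratio of 1.05 (0.989 to 1.11). Such bins are part of their end, so a shared direction is not a separate result. The bins compared were not counted per chromosome, so no share can be set beside these counts.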

How the data were processed

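Per the submitters' processing notes, reads were aligned with Bowtie. The sources used here give neither its version nor its settings or read filters, and the series text names mouse reference 8. Some chromosome ends in the reads lie beyond those of that reference, so the coordinates printed here are not taken to be on it. Each deposited file lists 1 aligned read of 36 bp per line with start, end, score and strand. The authors’ deposited score, always 255, was not used. Read starts and ends are as the authors deposited them, and all counts were made from these. A read was placed by its 5′ end, and reads were reduced to distinct positions. Ratios carry exact Clopper-Pearson intervals and single counts exact Poisson intervals. Neighbouring reads are clustered, so the intervals are too narrow. Depth was 3273273 mutant and 3305140 wild-type reads, about 12 positions per 10 kb bin, so single bins carry wide intervals. The 2-fold comparison ran over all autosomal bins, and its code was tested on simulated data with known ratios. The simulation split the positions of each bin independently, so it does not cover the clustering of real reads. Regions named are the densest and sparsest ends, the 10 fullest bins, the fullest bins of the last 200 kb and the bins farthest from a ratio of 1. The last bin of chromosome 13 and the gene names were chosen after their values were seen. The ends, lists and rules were chosen with earlier results of these data known. The comparison within density classes was added after the values were seen. Software was matplotlib 3.10.9, pandas 2.3.3, scipy 1.17.1 and numpy 2.4.6 under Python 3.11.15.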

Additional observations from a re-analysis of the deposited data

How the results depend on the processing

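The density of the ends against the 10 Mb before was 0.779 in del175k and 0.741 in wild type for the last 1 Mb, 0.990 and 0.981 for the last 5 Mb, 0.856 and 0.833 without empty bins, and 0.903 and 0.885 without the last 200 kb. Against the rest of chromosomes 1 to 19 the direction turned, with 1.05 and 1.07. With each chromosome left out in turn it ran from 0.850 to 0.894 in del175k and from 0.823 to 0.877 in wild type. Every aligned read, and bins other than pile-ups, gave values within the intervals. Reads per position in wild type were 1.133 for the last 5 Mb. At 3 times the mean bin, 1 mutant and 3 wild-type bins of the 380 in the last 200 kb were pile-ups, against 0.0878% and 0.257% of autosomal bins. At 5 or more reads the last 200 kb held 1 wild-type stack. The ratio between the libraries was 0.971 when scaled to the median of 100 kb bins, 1.03 when scaled to the 10 Mb before, 1.01 for the last 1 Mb and 0.971 for the last 5 Mb. End bins past 2-fold numbered 281 of 2581 with every read (10.9%, against 10.8% of all autosomal bins), 2 of 156 with 50 or more positions (1.28%, against 3.80% of all autosomal bins), 5 of 759 at 50 kb (0.659%, against 0.685%) and 0 with widened intervals. Fewer bins are compared at 50 positions and at 50 kb, but the shares past 2-fold fell there as well. The causes of the changes under these settings were not tested. No paired analysis was possible because each group holds 1 library, and no library could be left out. Depth limits single bins, where a count of 3 against 19 gave an interval from 1.80 to 32.2.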

Other observations

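The distal end of chromosome X, which in the mouse carries the pseudoautosomal region shared with Y, lies outside the autosomal ends and was measured in the same way. Its last 2 Mb held 1062 positions in the del175k library, 0.863 times the density of the 10 Mb before (0.808 to 0.922), and 1635 in wild type, 0.976 times (0.926 to 1.03). The scaled ratio between the libraries was 0.626 there (0.579 to 0.677) and 0.708 in the 10 Mb before (0.685 to 0.732), and these intervals do not overlap. Those 10 Mb held 6.15 positions per bin in the del175k library and 8.37 in wild type, so a low ratio was not confined to the end. Whether the animals of the libraries differed in sex was not tested. There were 1.10 reads per position in del175k and 1.14 in wild type, with at most 3 and 5 reads at a position.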
